A study of Mus musculus with 6 samples.

Results

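The Notch pathway was followed through 10 genes in sorted mouse pancreatic acinar cells: the receptors Notch1, Notch2 and Notch3, the ligands Jag1, Jag2 and Dll1, the nuclear mediator Rbpj, and the target genes Hes1, Hey1 and Nrarp. The genes were chosen by name for their place in the pathway, and they were 10 of the 21949 protein-coding genes measured. RNA sequencing had been done on 6 libraries, 3 of mice given cerulein (WT+Cerulein) and 3 of mice without it (WT), a comparison that describes what experimental pancreatitis does to acinar cells. Cerulein acts on the cholecystokinin receptor and drives acinar cells to oversecrete, which injures the pancreas. It was injected 7 times on each treatment day, on alternate days within a period of 3 days, and 1 day of recovery followed. All mice of both groups were adults of a CD1-enriched strain with the genotype ElastaseCreER/ROSA26YFP, in which the elastase promoter drives an inducible Cre recombinase and a yellow fluorescent reporter sits in the ROSA26 locus. The pancreas was digested and acinar cells were sorted by flow cytometry. The labels number the libraries n=1 to n=3 within a group and do not state separate mice, so the spread behind each p-value is that of these samples and may be technical in origin.

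Notch receptors are cut when a ligand on a neighbouring cell pulls on them, and the freed intracellular domain enters the nucleus, where it binds RBPJ and a Mastermind coactivator and turns on targets such as Hes1. Without the intracellular domain, RBPJ recruits corepressors to the same genes. In the mouse pancreas, Notch signalling holds embryonic progenitors back from acinar differentiation, Hes1 marks duct and centroacinar cells in the adult, and RBPJ is a partner of the acinar transcription factor PTF1A until the related protein RBPJL replaces it.

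The deposited levels are FPKM, fragment numbers divided by the length of the transcript and the size of the library, and many had lost their decimal mark. For the Notch genes this held for 30 transcript values in 7 genes. The marks were restored from the whole number of fragments that each FPKM must stand for. All 60 gene totals, 1 per gene and library, were placed, the least certain of them at a posterior probability of 0.995. Per kilobase of effective length, 1 FPKM stood for 12.7 to 19 fragments in WT+Cerulein libraries and for 3.5 to 4.47 fragments in WT libraries, which leaves low levels in WT with the larger counting error. The listed acinar markers, 12 of 13 restored, summed to 48888 to 87762 FPKM in WT+Cerulein and to 346963 to 360018 FPKM in WT, and none was at 0. WT replicate 1 stood apart from the other WT libraries. Its endothelial markers summed to 13.1 FPKM and its pericyte and smooth muscle markers to 14.6 FPKM, against at most 0.272 and 1.95 FPKM in WT replicates 2 and 3. Results that rest on WT replicate 1 are therefore given with and without it. In sorted bulk cells, fewer cells of a type and less RNA per cell cannot be told apart.

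Notch1 and Notch2 were the receptors present in every library, Notch3 was at or near the limit of detection in WT replicates 2 and 3, and no difference between the groups passed the test for any of them while all libraries were kept. Notch1 (chromosome 2, 26457903 to 26516663, GRCm38) had 4.13, 3.36 and 3.51 FPKM in WT+Cerulein, against 6.31, 3.70 and 4.45 FPKM in WT. The WT+Cerulein libraries lay close together and the groups overlapped, with WT replicate 1 the highest of all 6. The means were 3.66 ± 0.407 FPKM in WT+Cerulein and 4.82 ± 1.34 FPKM in WT (SD, n = 3 each). The log2 fold change was -0.30 (SE 0.30, 95% interval -0.96 to 0.36, limma adjusted p = 0.56), and without WT replicate 1 it was -0.12 (limma adjusted p = 0.778). Fold changes here and below are WT+Cerulein over WT on the scale of log2(FPKM + 1), which understates changes of low genes.

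Notch2 (chromosome 3, 98013527 to 98150361) had 2.91, 4.76 and 5.25 FPKM in WT+Cerulein, from 382, 791 and 1024 fragments. In WT it had 6.38, 1.22 and 0.543 FPKM, from 231, 51 and 25 fragments. WT replicate 1 was thus the highest of the 6 libraries while WT replicates 2 and 3 were the lowest, an 11.8-fold range within WT. The counting intervals were 5.58 to 7.26 FPKM in WT replicate 1, 0.906 to 1.6 in replicate 2 and 0.351 to 0.801 in replicate 3 (exact Poisson, 95%, counting error only). The log2 fold change was 0.83 (SE 0.52, 95% interval -0.32 to 1.97, limma adjusted p = 0.331). Without WT replicate 1 it was 1.49 (SE 0.32, limma adjusted p = 0.012), with means of 4.31 ± 1.23 FPKM in WT+Cerulein (SD, n = 3) and 0.88 FPKM in the remaining WT libraries. Without WT replicate 3, the lowest library, it was 0.36 (limma adjusted p = 0.675). With WT replicate 1 left out, 13.8% of all tested genes were higher in WT+Cerulein. Endothelial and pericyte markers, summed below, were highest in the same WT library, and their part in the Notch2 values was not tested.

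Notch3 (chromosome 17, 32120820 to 32166852), a receptor best known from vascular smooth muscle and pericytes, had 0.4, 0.126 and 0.114 FPKM in WT+Cerulein. In WT it had 1.81 FPKM in replicate 1, was listed at 0 in replicate 2 and had 0.0285 FPKM in replicate 3. WT replicate 1 held 50 fragments of Notch3, WT replicate 3 held 1 and WT replicate 2 held 0, which allows up to 0.0939 FPKM (the level of 3 fragments, counting error only, as for each such limit). Because Gapdh, a gene every cell uses, was itself listed at 0 in WT replicate 2, a 0 in these libraries can be a failed estimate, and genes with a 0 are given by library and without a mean. Notch3 was under the filter of the test (1 FPKM in at least 3 libraries).

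**Figure D1:**
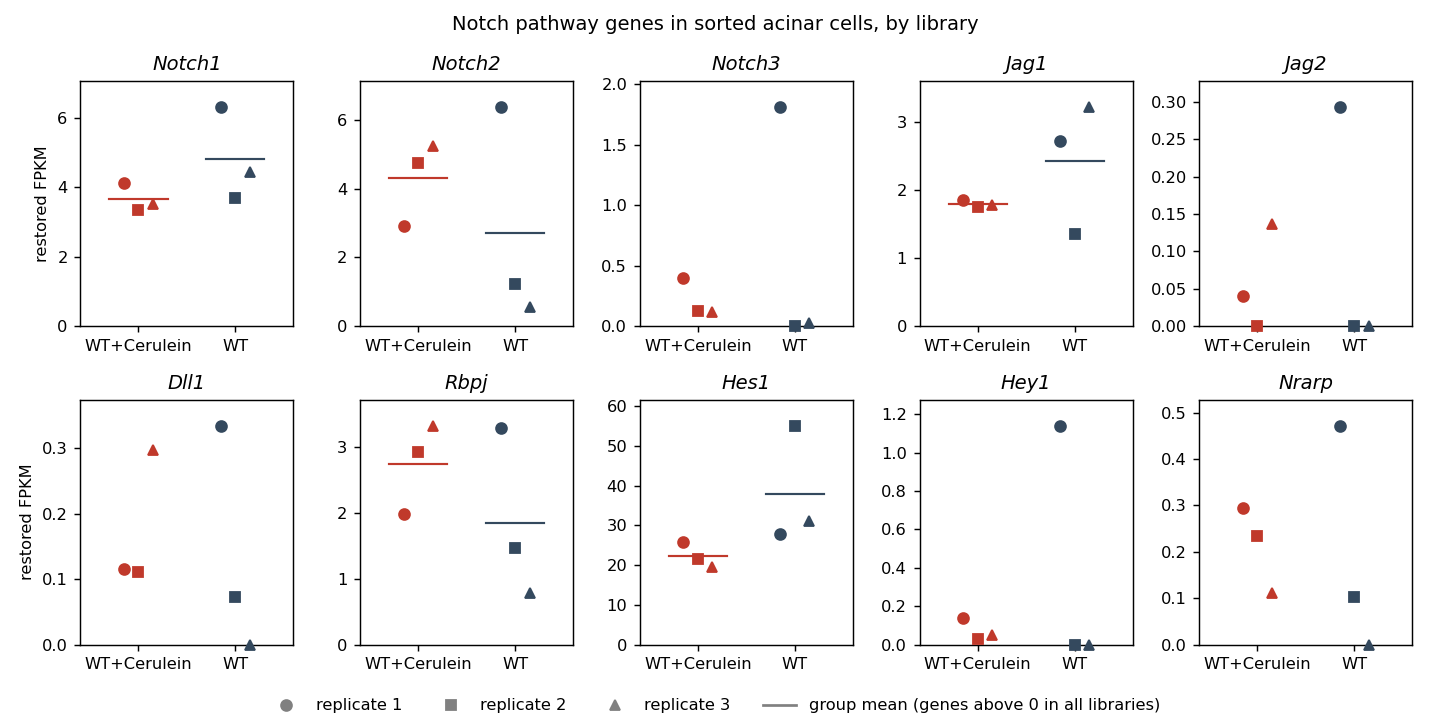
Level of each of the 10 Notch pathway genes, in restored FPKM on a linear axis from 0, with 3 WT+Cerulein libraries (red) left of 3 WT libraries (blue); the marker shape gives the replicate and the line the group mean. WT replicate 1 was the highest of the 6 libraries for 7 of the 10 genes, and Hes1 alone had groups that did not overlap. The share of all genes that were highest in WT replicate 1 was not computed.

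Of the ligands, only Jag1 was above 1 FPKM. Jag1 (chromosome 2, 137081456 to 137116644), which overlaps no other annotated gene, had 1.85, 1.75 and 1.78 FPKM in WT+Cerulein, against 2.72, 1.36 and 3.22 FPKM in WT. The WT+Cerulein values lay within the WT range and spread much less, at 1.79 ± 0.0527 FPKM in WT+Cerulein and 2.43 ± 0.963 FPKM in WT (SD, n = 3 each). They rested on 128, 153 and 182 fragments in WT+Cerulein and on 52, 30 and 78 fragments in WT. The log2 fold change was -0.26 (SE 0.32, 95% interval -0.95 to 0.44, limma adjusted p = 0.645). It was -0.50 without WT replicate 2 (limma adjusted p = 0.311) and -0.09 without WT replicate 3 (limma adjusted p = 0.888).

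Jag2 and Dll1 were each below 0.5 FPKM in every library and were not tested. Dll1 (chromosome 17, 15367354 to 15376872), a ligand of the Delta type, had 0.116, 0.11 and 0.297 FPKM in WT+Cerulein, from 5, 6 and 19 fragments. In WT it had 0.334 and 0.0724 FPKM in replicates 1 and 2, from 4 fragments and 1 fragment, and was listed at 0 in replicate 3, which allows up to 0.198 FPKM. Jag2 (chromosome 12, 112907819 to 112929776), a ligand of the Jagged type, had 0.0406 and 0.137 FPKM in WT+Cerulein replicates 1 and 3 and 0.293 FPKM in WT replicate 1. It was listed at 0 in the other libraries, where 0 fragments allow up to 0.0483 FPKM in WT+Cerulein replicate 2 and up to 0.191 and 0.174 FPKM in WT replicates 2 and 3. A difference in Jag2 or Dll1 was not detectable at these fragment numbers.

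Rbpj (chromosome 5, 53466152 to 53657362), the DNA-binding protein through which all the receptors act, had 1.98, 2.92 and 3.32 FPKM in WT+Cerulein, against 3.28, 1.46 and 0.788 FPKM in WT. As for Notch2, WT replicates 2 and 3 were the lowest libraries and WT replicate 1 lay among the WT+Cerulein values. The means were 2.74 ± 0.688 FPKM in WT+Cerulein and 1.84 ± 1.29 FPKM in WT (SD, n = 3 each). The log2 fold change was 0.48 (SE 0.37, 95% interval -0.34 to 1.29, limma adjusted p = 0.439). Without WT replicate 1 it was 0.82 (limma adjusted p = 0.0821), and without WT replicate 3 it was 0.19 (limma adjusted p = 0.763).

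The table splits Rbpj over 6 transcripts, and the split differed between libraries of the same group. ENSMUST00000087360 made up 0.0329%, 58.7% and 59.6% of the Rbpj total in WT+Cerulein and 25.9%, 95.3% and 20.7% in WT. ENSMUST00000201883 made up 16.4%, 30% and 32.7% in WT+Cerulein and 74.1%, 4.68% and 79.2% in WT. In WT+Cerulein replicate 1 most of the rest was on ENSMUST00000113865, at 46.6%, and ENSMUST00000201912, at 36.9%. The shares of both main transcripts ranged widely within each group, so the sum over transcripts is the value compared.

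RBPJ itself binds DNA at the core TGGGAA, and its own promoter is shown because that core is in it. RefSeq promoter windows, from 250 bases before to 50 bases after a start site on GRCm38.p6, matched 8 of the 10 genes with 10 windows, and only the 2 windows of Rbpj held TGGGAA on either strand. Among 32851 windows of all genes, 25.6% held it. The Rbpj window with 2 matches lies at chr5:53590096-53590395 on the + strand. It overlaps the other Rbpj window, whose only match is the same site as the later of these 2 matches. It is shown with the matches in capitals, TGGGAA starting 149 bases before the start site and its reverse complement TTCCCA starting 65 bases before it.
Rbpj: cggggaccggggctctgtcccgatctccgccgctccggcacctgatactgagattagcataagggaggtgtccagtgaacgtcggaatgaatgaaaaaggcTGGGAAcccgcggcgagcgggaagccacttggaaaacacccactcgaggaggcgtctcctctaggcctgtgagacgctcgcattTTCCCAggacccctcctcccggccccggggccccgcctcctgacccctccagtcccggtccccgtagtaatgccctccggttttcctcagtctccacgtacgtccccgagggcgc
The matches are a description of these letters and no evidence of binding. The Hes1 and Hey1 promoters were not analysed here.

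Hes1 (chromosome 16, 30064384 to 30067796), a helix-loop-helix repressor and the best known Notch target, was the most abundant of the 10 genes per length in every library. It had 25.9, 21.5 and 19.6 FPKM in WT+Cerulein, against 27.9, 55.1 and 31.1 FPKM in WT. All 3 WT+Cerulein libraries were below all 3 WT libraries, and the gap between the nearest libraries, 25.9 FPKM in WT+Cerulein and 27.9 FPKM in WT, lay within their counting intervals. Groups that did not overlap, with WT+Cerulein lower, were found for 14.7% of all tested genes. The means were 22.3 ± 3.24 FPKM in WT+Cerulein and 38.1 ± 14.8 FPKM in WT (SD, n = 3 each), a ratio of 0.587. The log2 fold change of -0.69 (SE 0.33, 95% interval -1.42 to 0.04) did not pass the test (limma adjusted p = 0.202). Without WT replicate 2, the highest library, it was -0.40 (limma adjusted p = 0.453), and without WT replicate 1 it was -0.87 (limma adjusted p = 0.0702). With libraries scaled to the sum without the digestive enzymes, Hes1 had a log2 fold change of -0.05 (limma adjusted p = 0.923). The direction turned when libraries were scaled to the sum of all restored genes, where Hes1 had a log2 fold change of 1.1 (limma adjusted p = 0.00667).

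The targets Hey1 and Nrarp were low and were not tested. Hey1 (chromosome 3, 8663359 to 8667256), a Hes-related repressor prominent in endothelium, had 0.14, 0.028 and 0.0476 FPKM in WT+Cerulein, from 4, 1 and 2 fragments. In WT it had 1.14 FPKM in replicate 1, from 9 fragments, and was listed at 0 in replicates 2 and 3, which allows up to 0.329 and 0.301 FPKM. Hey1 was thus above 1 FPKM in WT replicate 1 alone, the library with the highest summed endothelial markers. Nrarp (chromosome 2, 25180758 to 25183339), a feedback inhibitor that Notch induces, had 0.295, 0.235 and 0.111 FPKM in WT+Cerulein, from 9, 9 and 5 fragments. In WT it had 0.472 and 0.103 FPKM in replicates 1 and 2, from 4 fragments and 1 fragment, and was listed at 0 in replicate 3, which allows up to 0.281 FPKM.

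In WT+Cerulein the levels per length ran from Hes1 at the top through Notch2, Notch1, Rbpj and Jag1 to the 5 genes below the filter. Notch2 and Notch1 overlapped in range, while Notch1, Rbpj and Jag1 were each above the next in all 3 libraries. In WT the order below Hes1 was Notch1, Notch2, Jag1 and Rbpj by their means, and each range overlapped that of the next gene.

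None of the 5 tested Notch genes passed an adjusted p of 0.05, in a fit that called 12.8% of all tested genes (838 of 6561, of which 464, or 7.07%, were higher and 374, or 5.7%, lower in WT+Cerulein). That count moved between 272 without WT+Cerulein replicate 2 and 1502 without WT replicate 1, and was 535 without WT+Cerulein replicate 1, 274 without WT+Cerulein replicate 3 and 519 without WT replicate 2. Before adjustment limma called 0 of the 5 genes as well, against 27.9% of all tested genes. On restored fragments limma-voom called 0 after adjustment and 2 before it, Hes1 with a log2 fold change of -0.74 (adjusted p = 0.136) and Notch2 with one of 1.42 (adjusted p = 0.123). Over all genes limma-voom called 15.5% after adjustment and 31.2% before it, so 2 of 5 is near the background. With no filter on low values all 10 genes could be tested and 0 passed, against 2.58% of 13937 genes. The intervals are wide: for Notch2 the 95% interval reached from -0.32 to 1.97 on the log2 scale, so the test leaves changes up to these sizes undecided.

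The direction of these genes depended on the scale. Restored genes summed to 226689, 205498 and 159696 FPKM in WT+Cerulein, against 679517, 727740 and 710158 FPKM in WT. When each library was scaled to that sum, the median over all tested genes moved to 1.34 (log2), against 0.10 on the deposited scale, and 82% of tested genes were called higher. All 5 Notch genes were then called higher, Hes1, Jag1 and Notch1 with turned signs. Relative to the median of all tested genes, the difference was -0.24 for Hes1, -0.36 for Jag1, -0.16 for Notch1, 0.75 for Notch2 and 0.35 for Rbpj under that scaling. On the deposited scale the same differences were -0.79 for Hes1, -0.35 for Jag1, -0.40 for Notch1, 0.73 for Notch2 and 0.38 for Rbpj. The scaling divides all genes of a library by 1 factor, so apart from the added 1 FPKM these differences cannot change. That each gene kept its side of the median is therefore no separate result.

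**Figure D2:**
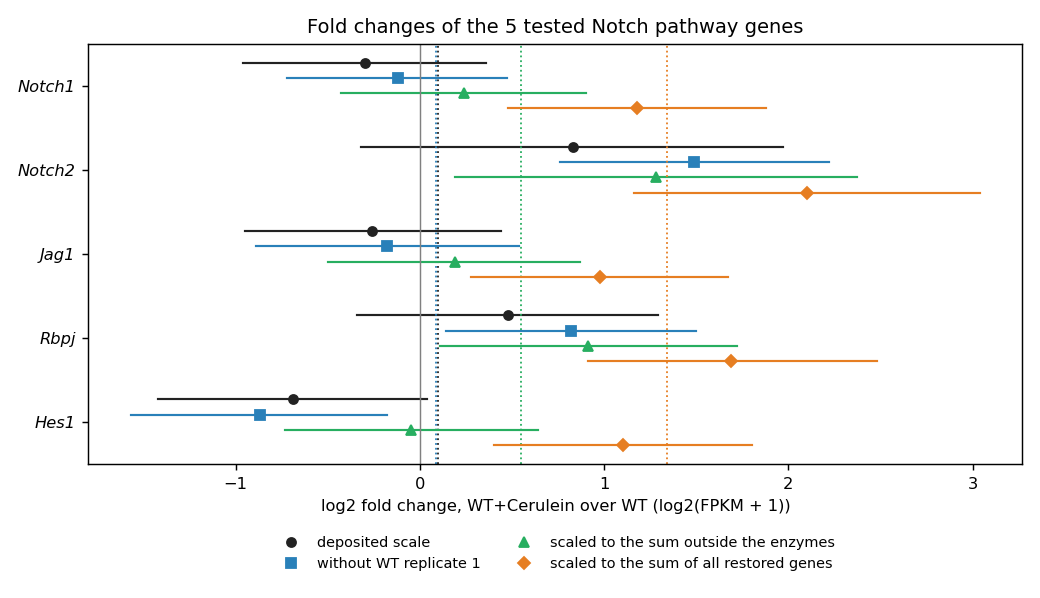
Log2 fold change of the 5 tested Notch genes, WT+Cerulein over WT on the log2(FPKM + 1) scale, with 95% intervals from limma, for the deposited scale, without WT replicate 1 and under 2 other scalings; dotted lines give the median of all tested genes in the same colours. Notch2 lay to the right and Hes1 to the left of that median in each setting, which a scaling by 1 factor per library can alter only through the added 1 FPKM. The signs of Hes1, Jag1 and Notch1 turned under the scaling to the sum of all restored genes, and those of Jag1 and Notch1 also under the scaling outside the enzymes.

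WT replicate 1 was the highest of the 3 WT libraries for 8 of the 10 Notch genes, all but Jag1 and Hes1, and markers of vessels were highest in it too. The share of all genes that were highest in this library was not computed, so the count cannot be read as particular to the Notch genes. WT replicate 1 had 13324 genes above 0, against 10988 and 11546 in WT replicates 2 and 3. The 10 restored endothelial markers of 11 listed summed to 2.68, 2.56 and 1.41 FPKM in WT+Cerulein, against 13.1, 0.272 and 0 FPKM in WT, and 7 of the 10 were highest of all libraries in WT replicate 1. In WT replicates 2 and 3, 7 and 10 of them were at 0, Pecam1 and Cdh5 among them. The 7 restored pericyte and smooth muscle markers of 8 listed summed to 6.82, 3.32 and 7.84 FPKM in WT+Cerulein, against 14.6, 1.95 and 0.344 FPKM in WT. Of these 7, 4 were highest of all libraries in WT replicate 1 and the others in a WT+Cerulein library.

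Summed fibroblast and leukocyte markers were higher in the WT+Cerulein libraries, and within WT these sums too were highest in replicate 1. The 7 restored fibroblast and matrix markers of 8 summed to 268, 217 and 313 FPKM in WT+Cerulein, against 34.9, 6.92 and 1.74 FPKM in WT, and the 6 restored macrophage and leukocyte markers of 9 to 41.2, 73.1 and 73.1 FPKM in WT+Cerulein, against 11.5, 1.93 and 1.36 FPKM in WT. The groups did not overlap in either sum. Of the fibroblast and matrix markers, 1 was highest of all libraries in WT replicate 1. This was Pdgfra, at 3.86, 2.26 and 2.22 FPKM in WT+Cerulein, against 11.9, 0.0941 and 0.141 FPKM in WT. Duct markers, 7 of 8 restored, summed to 185 to 230 FPKM in WT+Cerulein and 124 to 281 FPKM in WT, which overlapped. The part of these other cell types in the levels of the Notch genes was not tested.

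**Figure D3:**
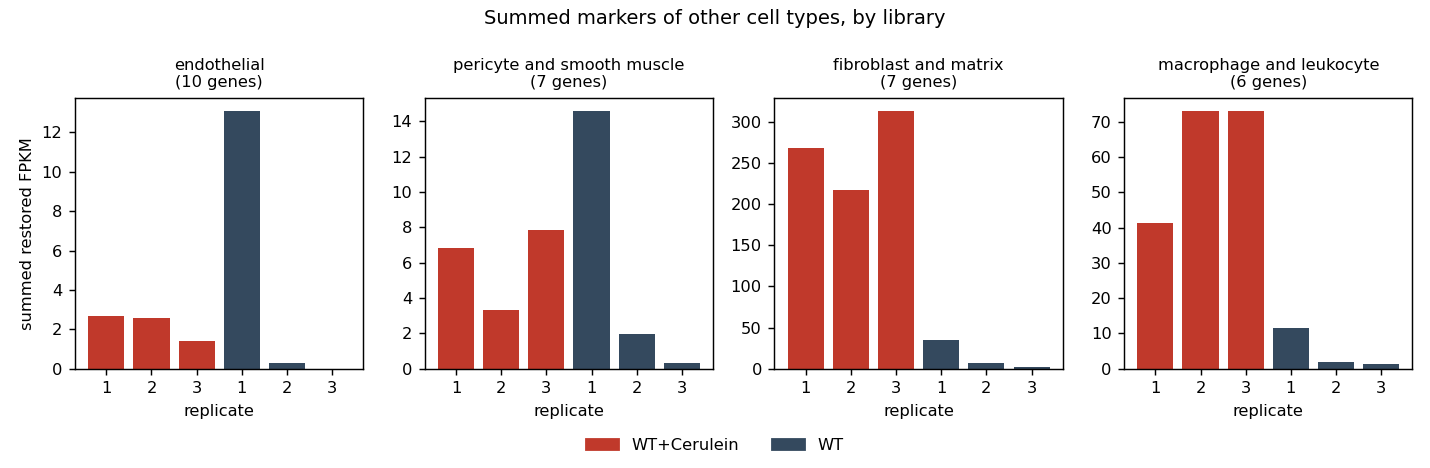
Summed restored FPKM of markers of 4 other cell types in each library, on linear axes from 0 that differ between panels, WT+Cerulein (red) left of WT (blue). Endothelial and pericyte sums were highest in WT replicate 1, at 13.1 and 14.6 FPKM, while fibroblast and leukocyte sums were higher in all 3 WT+Cerulein libraries.

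When WT replicate 1 was left out, 6 of the 10 genes (Notch2, Notch3, Dll1, Rbpj, Hey1 and Nrarp) were higher in all 3 WT+Cerulein libraries than in both remaining WT libraries, Hes1 was lower in all, and Notch1, Jag1 and Jag2 overlapped. Of all genes restored in every library and tested without a filter, 30.3% were higher and 13.2% lower in this way. For Notch3, Dll1, Hey1 and Nrarp the remaining WT libraries held at most 1 fragment each. In WT libraries 1 FPKM also stands for fewer fragments than in WT+Cerulein libraries, so a low level is harder to detect there. The part of this difference in the result was not tested.

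A wider list of 67 pathway genes held the other receptors and ligands, the enzymes that cut and glycosylate receptors, ubiquitin ligases and endocytic adaptors, the coactivators and corepressors of RBPJ, and further targets. Of these genes 32 could be tested, 19 were below the filter and 16 were not restored, so their direction is open. Of the 32 tested genes 4 were higher and 3 lower in WT+Cerulein, and 25 did not pass, in a fit that called 7.07% of all tested genes higher and 5.7% lower. Their median log2 fold change was -0.07, against 0.10 for all tested genes. The list's count was 1 without WT+Cerulein replicate 2, 1 without WT+Cerulein replicate 3 and 3 without WT replicate 2. None of the 6 other receptors and ligands (Notch4, Dll3, Dll4, Dlk1, Dlk2 and Dner) passed the filter. Of the genes below it, Neurl1a and Dll3 are named here after their values were seen. Neurl1a had 0.967, 0.5 and 0.38 FPKM in WT+Cerulein, against 0.162, 0 and 0 FPKM in WT. Dll3 had 0.0968, 0 and 0 FPKM in WT+Cerulein, against 0.232, 0.707 and 0.184 FPKM in WT. The groups did not overlap for either gene, and the share of all genes below the filter with such groups was not computed. With no filter neither gene passed (limma adjusted p = 0.115 for Neurl1a and 0.213 for Dll3).

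Among the enzymes that process receptors, 1 of 4 tested cleavage genes and 1 of 4 tested glycosylation genes fell, and none passed the test as higher. Counts this small cannot be read against the 5.7% of all tested genes that fell and the 7.07% that rose. Psen2, a catalytic subunit of γ-secretase, which releases the intracellular domain, had 5.97, 5.4 and 4.36 FPKM in WT+Cerulein, against 19.9, 21 and 13 FPKM in WT (limma log2 fold change -1.58, SE 0.30, adjusted p = 0.00847). Rfng, a Fringe glycosyltransferase that modifies the receptor's ligand-binding repeats, had 4.42, 1.43 and 1.99 FPKM in WT+Cerulein, against 11.2, 7.24 and 10.4 FPKM in WT (limma log2 fold change -1.62, SE 0.36, adjusted p = 0.0156). For both genes the groups were well apart, but the calls did not survive every alternative. Without WT+Cerulein replicate 2 the adjusted p was 0.0512 for Psen2 and 0.0957 for Rfng, and without WT+Cerulein replicate 3 it was 0.0604 for Psen2 and 0.0896 for Rfng. Scaled to the sum of all restored genes, the log2 fold change of Psen2 turned to 0.08 and that of Rfng was -0.13, and neither passed. With no filter the adjusted p of Rfng was 0.0676. Adam10, the protease that makes the first cut in the receptor, is named here after its values were seen. It had 17.2, 18.9 and 20.7 FPKM in WT+Cerulein, against 3.99, 11.9 and 10.1 FPKM in WT (limma log2 fold change 1.15, SE 0.38, adjusted p = 0.0722). It passed with a filter at 5 FPKM (adjusted p = 0.0348), by limma-voom (adjusted p = 0.0383) and when scaled to the sum without the enzymes (adjusted p = 0.00577) or of all restored genes (adjusted p = 1.49e-05). Without WT replicate 1, its lowest library, the log2 fold change was 0.73 and did not pass (limma adjusted p = 0.0648). With no filter Adam10 did not pass either (limma adjusted p = 0.155). Lfng and Ncstn, of the same roles and also named after their values were seen, went the other way. Lfng had a log2 fold change of -1.25 (limma adjusted p = 0.0524, limma-voom adjusted p = 0.025). Ncstn had one of -0.93 (limma adjusted p = 0.0722, limma-voom adjusted p = 0.04). Without WT replicate 1 the log2 fold change was -0.88 for Lfng (limma adjusted p = 0.0596) and -0.79 for Ncstn (limma adjusted p = 0.0724). Scaled to the sum of all restored genes, both turned, to 0.25 for Lfng and 0.75 for Ncstn.

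Of 9 tested genes of endocytosis and ubiquitination, 3 rose and none fell, where 7.07% of all tested genes rose and 5.7% fell; the difference in share was not tested. Neurl3, an E3 ubiquitin ligase of the Neuralized family, had 3.2, 6.22 and 7.83 FPKM in WT+Cerulein, against 1.85, 0.917 and 0.465 FPKM in WT (limma log2 fold change 1.69, SE 0.38, adjusted p = 0.0162). Dtx2, an E3 ligase of the Deltex family, had 3.59, 2.78 and 3.94 FPKM in WT+Cerulein, against 1.26, 0.532 and 0.486 FPKM in WT (limma log2 fold change 1.35, SE 0.31, adjusted p = 0.017). Dtx3l, a Deltex-related ligase known mainly as a partner of PARP9 in DNA repair and interferon responses, had 1.86, 4.6 and 2.41 FPKM in WT+Cerulein, against 0.721, 0.336 and 0.743 FPKM in WT (limma log2 fold change 1.26, SE 0.33, adjusted p = 0.0344). The sign held in every alternative run for these 3 genes, and the calls were lost with no filter and when certain single libraries were left out. The highest adjusted p was 0.102 for Neurl3 (lost without WT+Cerulein replicate 2 or 3 or WT replicate 2) and 0.196 for Dtx3l (lost without WT+Cerulein replicate 2 or 3 or WT replicate 2 or 3). For Dtx2 it was 0.116, by limma-voom, and the call was also lost when any single WT+Cerulein library or WT replicate 2 was left out. The summed macrophage and leukocyte markers were likewise higher in all 3 WT+Cerulein libraries, and their part in these changes was not tested.

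Among the coactivators 1 of 5 tested genes fell and among the targets 1 of 4 rose, while none of 6 tested corepressors passed, beside the same shares of all genes. Kat2b, an acetyltransferase recruited by the Notch complex, had 2.55, 6.3 and 4.86 FPKM in WT+Cerulein, against 13.5, 26.3 and 8.04 FPKM in WT (limma log2 fold change -1.52, SE 0.43, adjusted p = 0.045). This call was lost when any single WT+Cerulein library was left out (limma adjusted p = 0.0783 to 0.155), and likewise without WT replicate 2 (limma adjusted p = 0.133), and the sign turned to 0.11 under the scaling to the sum of all restored genes. It was also lost at a pseudocount of 0.1 (adjusted p = 0.0653), with no filter (0.138), at a replicate spread of 1.5 log2 units (0.0552) and when scaled to the sum without the enzymes (log2 fold change -0.94, adjusted p = 0.115), so that Kat2b passed in 7 of 16 alternatives. Id1, a helix-loop-helix inhibitor of differentiation that is also a classic target of BMP signalling, had 12.1, 22.4 and 12.8 FPKM in WT+Cerulein. In WT it had 2.58 FPKM in replicate 1 and was listed at 0 in replicates 2 and 3. Its fitted log2 fold change was 3.40 (SE 0.49, limma adjusted p = 0.00196), a size that depends on the added 1 FPKM since 2 WT libraries were at 0. Id1 passed in all 16 alternatives, with adjusted p from 2.83e-07 to 0.0351. The summed fibroblast and matrix markers were also higher in every WT+Cerulein library, and their part in the change of Id1 was not tested. Sox9, a duct transcription factor and Notch target named here after its values were seen, had 4.77, 5.71 and 5.73 FPKM in WT+Cerulein, against 23.1, 14.4 and 7.26 FPKM in WT (limma log2 fold change -1.18, SE 0.39, adjusted p = 0.0724). It passed with a filter at 5 FPKM (adjusted p = 0.033), by limma-voom (adjusted p = 0.0318) and without WT replicate 3 (adjusted p = 0.018). Without WT replicate 1, its highest library, the log2 fold change was -0.82 and did not pass (limma adjusted p = 0.0937). Nor did Sox9 pass with no filter (limma adjusted p = 0.163) or without WT replicate 2 (limma adjusted p = 0.157). Scaled to the sum without the enzymes its log2 fold change was -0.59 (limma adjusted p = 0.261). Scaled to the sum of all restored genes its log2 fold change was 0.46 (adjusted p = 0.266).

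**Figure D4:**
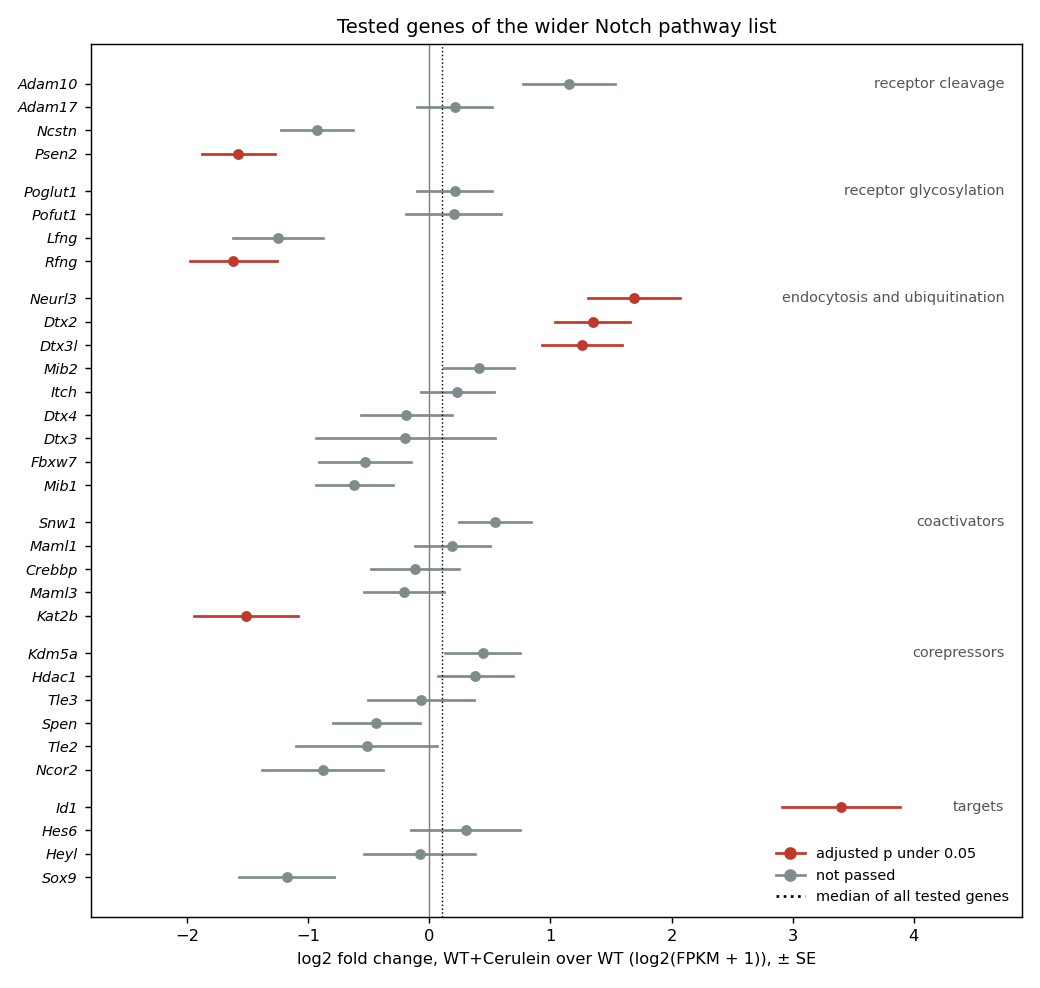
Log2 fold change with its standard error, WT+Cerulein over WT on the log2(FPKM + 1) scale, of the 32 tested genes of the wider list, grouped by role; red genes passed an adjusted p of 0.05 by limma on the deposited scale, and the dotted line is the median of all tested genes, 0.10. The 4 red genes to the right are Neurl3, Dtx2, Dtx3l and Id1, and the 3 to the left are Psen2, Rfng and Kat2b; Psen2 and Kat2b turned sign under the scaling to the sum of all restored genes.

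The tested genes whose levels followed each Notch gene most closely over the 6 libraries were found by Pearson correlation of log2(FPKM + 1), as a description of 6 points that share their group and their library. Notch2 and Rbpj shared a neighbour, Dst, a cytoskeletal linker gene, at r = 0.9975 with Notch2 and 0.9916 with Rbpj. The other closest gene was Map7d1 for Notch2 (0.9927) and Mnda for Rbpj (0.9962). Notch1 was followed by Spryd3 (0.9984) and Pomt1 (0.9874), Jag1 by Cib2 (0.9902) and Papss1 (0.9889), and Hes1 by Galnt7 (0.9928) and Habp4 (0.9925).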

How the data were processed

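The authors deposited 1 table of FPKM for 50660 protein-coding transcripts, with a column for each library. Per the submitters' processing notes, the tools were fastp, HISAT2, featureCounts and DESeq2 and the build mm10. Neither the program behind the FPKM nor counting by strand is stated. Reads of overlapping genes (Notch1, Notch2, Notch3, Jag2, Dll1, Rbpj and Nrarp overlap others in GENCODE M21) may therefore be shared. Deposited values of 5 or 6 digits had lost their decimal mark (18.05% to 21.41% of a library's values), so the planned FPKM test was applied to restored values.

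FPKM times effective length and a library constant gives whole fragments. Lengths came from GENCODE M21 (98.9% of transcripts), and 71.3% to 74.5% of intact values lay within 0.01 of a whole number. Placements were weighed by that distance, by a shift from the annotated length of up to 1200 bases and by a spread of 0.6 log2 units between replicates of a group. They were accepted at a posterior of 0.95, and totals within 5% counted as the same. Of 8939 genes above the filter, 6561 (73.4%) were restored and tested. The method was tested on simulated data (5504 genes): it placed 82.7% of the marks, 99.84% of them correctly. Genes whose replicates lie far apart are restored less often, and the share of correct placements among them was not tested.

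Transcripts were summed per gene and tested with limma 3.58.1 in R 4.3.3 (eBayes with trend) on log2(FPKM + 1), for genes at 1 FPKM or more in at least 3 of 6 libraries. P-values were adjusted by Benjamini-Hochberg over all tested genes. An exact permutation test of 3 against 3 cannot go below p = 0.1 and was not used. The rule for named genes took all 10 Notch genes, every gene of the wider list past an adjusted p of 0.05 and the 2 genes most correlated with each tested member. The members and lists were chosen with earlier results of these data known. Alternatives covered the pseudocount, filters, each library left out, a replicate block, scaling, the posterior, the replicate spread, limma without trend and limma-voom. The labelled cerulein dose has a unit that cannot be right and was not used.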

Additional observations from a re-analysis of the deposited data

How the results depend on the processing

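Of all tested genes 838 changed, and 272 to 1502 when single libraries were left out. The count was 359 with no filter, 552 with a replicate spread of 1.5 log2 units, 1847 when scaled to the sum without the digestive enzymes and 5427 when scaled to the sum of all restored genes, a scaling chosen after the data were seen. The share of calls that were higher was 89.3% and 99.2% under these 2 scalings, against 55.4% on the deposited scale. Of the Notch genes 0 were called, 0 to 1 with single libraries left out (Notch2, without WT replicate 1) and 5 when scaled to the sum of all restored genes. Of the wider list 7 were called, 1 to 8 with single libraries left out, 2 with no filter and 23 when scaled to the sum of all restored genes.

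Of the 5 tested Notch genes and the 7 called genes of the wider list, signs turned under the scalings only. When scaled to the sum of all restored genes, the log2 fold change was 1.1 for Hes1, 0.98 for Jag1, 1.18 for Notch1, 0.11 for Kat2b and 0.08 for Psen2. When scaled outside the enzymes it was 0.19 for Jag1 and 0.24 for Notch1. The cause was not tested.

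The replicate numbers pair nothing by the labels, and same-numbered libraries had correlated deviations of 0.16, 0.13 and -0.05. With a replicate block 858 genes, 0 Notch genes and 7 genes of the wider list were called. Jag1 could not be restored at a spread of 1.5, and Hes1 is the only Notch gene past the filter at 5 FPKM. Of the wider list, Rfng, Adam10 and Sox9 dropped out of the test at a spread of 1.5 and at a posterior of 0.99, and Lfng at a spread of 1.5. Jag2, Dll1, Hey1, Nrarp and Notch3 held at most 1 fragment each in WT replicates 2 and 3, which limits the precision there.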

Other observations

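Rbpjl, the acinar paralogue that replaces RBPJ as partner of PTF1A in mature mouse acinar cells, had most probable levels of 42.6, 29 and 25.6 FPKM in WT+Cerulein, against 68.4, 94.2 and 39.5 FPKM in WT. The posterior of these placements was 0.999 in WT+Cerulein and 0.938 to 0.94 in WT, below the 0.95 required, so the gene was not tested. The lowest placements of the WT values are 6.84, 9.42 and 3.95 FPKM and the highest are 684, 942 and 395 FPKM. For WT+Cerulein the lowest are 4.26, 2.9 and 2.56 FPKM and the highest 426, 290 and 256 FPKM. The direction of Rbpjl is therefore open.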
